A study of Schizosaccharomyces pombe with 32 samples.

Results

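The late stressed state is the messenger RNA of fission yeast 180 and 240 min after hydrogen peroxide, 3 and more hours into a response that is fastest in its first hour. It was measured on 4 arrays, 2 from each of 2 stressed cultures, out of 32 arrays in the series, and each was set against the 0 min array of its own culture. The arrays were chosen by their titles, with no measured value. All cultures were Schizosaccharomyces pombe strain JB50, a homothallic strain (mating type h90) whose cells can switch type and mate with each other, grown at one temperature in batch flasks of YES, a rich broth. The groups used here were stressed cultures 180 and 240 min after 0.5 mM hydrogen peroxide, the same stressed cultures 50 and 60 min after it, the same at 0 min, and untreated cultures at 180 and 240 min and at 0 min. Each group at each time held 2 arrays, 1 from culture 1 and 1 from culture 2. The stressed and untreated cultures were separate flasks that share only a number. Starting densities varied among the stressed cultures, but no label says which density culture 1 or culture 2 had. Time of growth in the flask and time after peroxide run together in the stressed series. The unit is the deposited signal of a probe set, which follows the abundance of its transcript on an unknown scale, and a change is a difference of log2 signal, where 1 is 2-fold. Of 4972 probe sets, 2903 had 1 gene symbol.

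Peroxide reaches fission yeast through 2 well-known routes. The kinase Sty1 and its transcription factor Atf1 switch on a broad set of stress genes shared by heat, salt and oxidants, while the transcription factor Pap1 is oxidised directly and drives antioxidant enzymes and drug exporters. At the same time growing cells turn down the genes for making ribosomes. Once peroxide has been broken down, these programmes are usually shut off again by phosphatases such as Pyp2, which acts on Sty1, and by the reduction of Pap1. The late arrays show how far each culture had returned.

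The 2 stressed cultures stood in different places at 180 and 240 min, and this was so before any gene was singled out. The distance between 2 arrays was taken as the standard deviation of the log2 signal difference over the 3442 probe sets with a mean log2 signal above 0. Measured from its own 0 min array, culture 2 lay 0.901 away at 60 min, then 1.017 at 180 min and 0.996 at 240 min. Culture 1 lay 0.901 away at 60 min, then 0.372 at 180 min and 0.34 at 240 min. Both cultures had thus moved equally far at 60 min, and culture 2 alone was still that far out late. The late arrays of culture 2 lay 0.993 and 0.979 from those of culture 1 at 180 and 240 min. Before peroxide the cultures had lain only 0.308 apart. Beyond the other late array of culture 1, the array nearest to culture 1 at 240 min was the 0 min array of culture 2 (0.315), followed by its own (0.34). The array nearest to each late array of culture 2, after the other late one, was its array at 120 min (0.229 and 0.252).

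The 180 and 240 min arrays of culture 2 were the closest of all 496 pairs of arrays, at 0.11, with 5 identical values, against 0.299 for the same pair in culture 1. They were nearly 1 observation of that culture, so a pair of late values in culture 2 carries little more than a single one. Untreated cultures at 240 min had also left their start by more than stressed culture 1 had, with distances of 0.703 for culture 2 and 0.854 for culture 1. Array medians of the signal lay between 1.52 and 2.0.

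**Figure D1:**
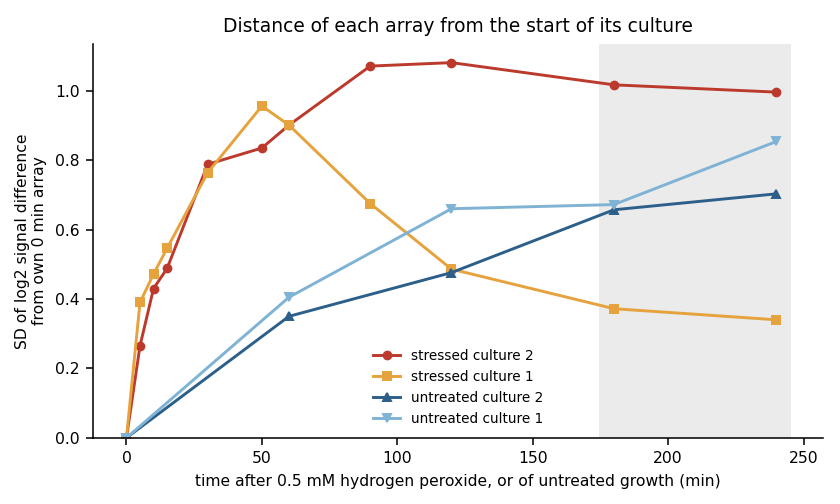
The y axis is the standard deviation of the log2 signal difference between each array and the 0 min array of its culture over 3442 probe sets, and the x axis is time in min. Circles are stressed culture 2, squares stressed culture 1, upward triangles untreated culture 2 and downward triangles untreated culture 1, with 1 array per point and the late times shaded. Stressed culture 1 came back to 0.34 at 240 min, while stressed culture 2 stayed at 0.996.

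Taken over both cultures, few transcripts passed a test at 180 and 240 min against 0 min. In limma, with Benjamini-Hochberg adjustment, 7 of 4972 probe sets passed an adjusted p of 0.05, which is 0.141%, and all 7 were higher. At an unadjusted p under 0.05 there were 347. The only 1 of the 7 with a gene symbol was hsp16, a small heat shock protein. Its signal was 27.1 and 29.8 in culture 2 at 180 and 240 min, against 3.10 at 0 min, and 20.7 and 13.7 in culture 1, against 4.65 at 0 min. All 4 late arrays lay above both 0 min arrays, and hsp16 rose by 2.53 on the log2 scale (SE 0.44, adjusted p = 0.0248 in limma, 4 late arrays against 2). The call of hsp16 was lost with the late arrays of a culture averaged first (adjusted p = 0.0697), with only the arrays compared (0.871) and without the stressed arrays of culture 2 (0.999). It was also lost without the 180 or the 240 min array of culture 2 (0.14 and 0.128). Leaving out a single 0 min array ended it too, at 0.895 for that of culture 2 and 0.185 for that of culture 1. In untreated cultures, however, hsp16 was 6.81 and 7.50 in culture 2, against 9.55 at 0 min, and 8.47 and 14.4 in culture 1, against 2.26 at 0 min. The untreated cultures thus went opposite ways, and the rise of hsp16 in stressed cultures less that in untreated ones was 1.59 (SE 0.62, adjusted p = 0.215).

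The other 6 probe sets that rose are not named in the platform annotation. The strongest by p-value was 1770946_at, with a signal of 5.18 and 5.71 in culture 2, against 0.705 at 0 min, and of 5.75 and 2.56 in culture 1, against 0.849. It rose by 2.56 (SE 0.30, adjusted p = 0.000322), and its rise less that in untreated cultures was 3.30 (adjusted p = 0.000275). Probe set 1778379_at rose by 3.11 (SE 0.50, adjusted p = 0.0143), with 21.7 and 21.9 in culture 2, against 1.73, and 17.2 and 7.47 in culture 1, against 1.91. The remaining 4 rose by 2.01 to 4.45. Just short of the threshold lay gdh2, a glutamate dehydrogenase that uses NAD (1.74, SE 0.35, adjusted p = 0.0521), and gst2, a glutathione S-transferase (2.29, SE 0.47, adjusted p = 0.0555).

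These counts rest on which culture and which arrays enter. With the stressed arrays of culture 1 left out the same comparison called 761 probe sets, 392 higher and 369 lower. With those of culture 2 left out limma called none, and 112 had an unadjusted p below 0.05. Each of these fits has 1 array per stressed time, and its spread comes from the untreated arrays alone. With the 2 late arrays of a culture averaged to 1 value first, 1 probe set passed. Leaving out only the 180 or the 240 min array of culture 1 gave 31 and 79 calls, leaving out either late array of culture 2 gave 1 each, and leaving out either 0 min array gave 1. Without the untreated arrays of either culture, which lend their spread, 3 passed. Taken singly, 180 min against 0 min called 2 probe sets (0.0402%) and 240 min against 0 min called 1 (0.0201%), with 458 and 393 when culture 1 was left out and 1 and 0 when culture 2 was. With the culture as a fixed block these were 4 and 2. Between 240 and 180 min limma called 0 (0%), with 1 at an unadjusted p under 0.05.

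Because the cultures had parted, each transcript was also classed by culture. A culture counts as changed where both of its late arrays lie at least 2-fold from its own 0 min array in the same direction, and as not changed where both lie under 2-fold. Each culture has 1 array at each time, so the classes are a description and carry no test. By this rule 31 probe sets (0.623%) were higher in both cultures and 6 (0.121%) lower in both. In culture 2 alone 485 (9.75%) were higher and 566 (11.4%) lower. In culture 1 alone 8 (0.161%) were higher and 4 (0.0805%) lower. A further 4 (0.0805%) moved in opposite directions, 3554 changed in neither, and 314 had 1 late array past 2-fold and the other not. By the same rule 251 probe sets (5.05%) were higher and 92 (1.85%) lower in both untreated cultures over the same span.

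**Figure D2:**
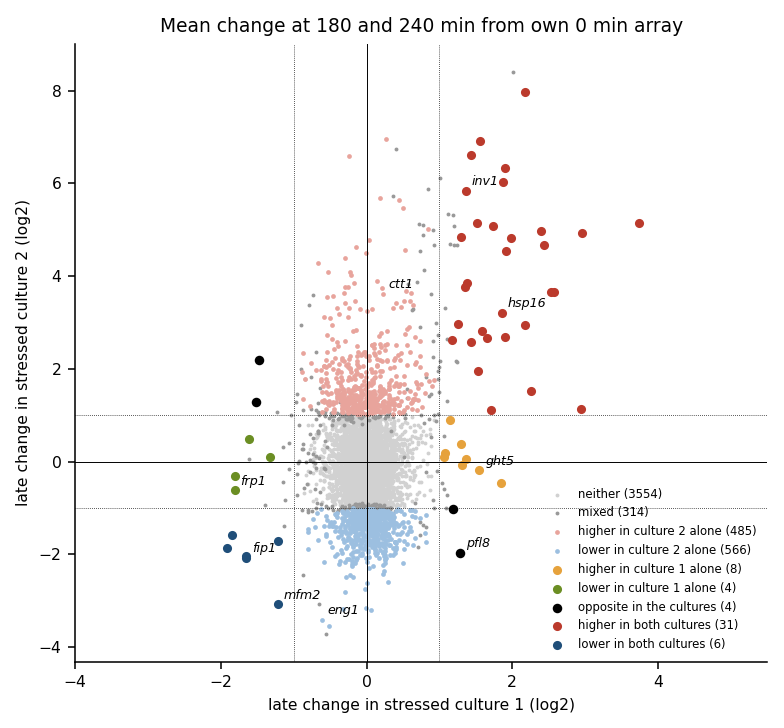
Each point is a probe set, with its mean log2 change at 180 and 240 min from the 0 min array in stressed culture 2 on the y axis and in stressed culture 1 on the x axis, coloured by class, with dotted lines at 2-fold. Points spread along the y axis and little along the x axis: 485 and 566 probe sets changed in culture 2 alone, against 8 and 4 in culture 1 alone.

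The difference between the cultures was tested directly as the late change in culture 2 minus that in culture 1. The spread came from the untreated groups and from the stressed groups at other times, each of 2 cultures. At 90 and 120 min, which enter that spread, the stressed cultures had already parted. Culture 2 then lay 1.071 and 1.081 from its own 0 min array, and culture 1 lay 0.675 and 0.486 from its own. Part of the difference under test is thus in the spread, so a count of 0 cannot show that the cultures were alike. Limma called 0 (0%), while 443 probe sets had an unadjusted p below 0.05, and the lowest adjusted p was 0.546. The same difference between untreated cultures also gave 0 calls (0%), with 33 at an unadjusted p under 0.05. Each side of this test is a single culture, so no probe set that is higher or lower in one culture alone has been shown to differ between the cultures. Their values are given as what these arrays hold.

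The 31 probe sets higher in both cultures had a median change of 3.86 in culture 2, with a range of 1.12 to 7.97, and of 1.86 in culture 1, with a range of 1.17 to 3.74. In the untreated cultures their medians were 0.70 in culture 2, with a range of -0.75 to 7.39, and 0.76 in culture 1, with a range of -0.78 to 7.9. In limma 2 of the 31 (6.45%) rose there, against 7.02% of all probe sets. By the 2-fold rule that defines the class, however, 6 of the 31 were also higher in both untreated cultures, against 251 (5.05%) of all 4972 probe sets. The 2 measures thus differ, and whether the class as a whole is set apart from untreated growth was not tested. The 10 with a symbol were lsd90, inv1, hsp16, caf5, pcm2, gst2, gdh2, mel1, tms1 and nc-pho1, the last of which lies outside the rule for named genes and was added after its values were seen.

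Of these, inv1 encodes invertase, which splits sucrose outside the cell, mel1 an alpha-galactosidase, and tms1 a hexitol dehydrogenase. The signal of inv1 was 5.91 and 5.84 in culture 2, against 0.102 at 0 min, and 0.181 and 0.183 in culture 1, against 0.0711. For tms1 it was 13.7 and 13.9 in culture 2, against 0.388, and 1.43 and 0.830 in culture 1, against 0.379. In both genes the late arrays of culture 2 were high and those of culture 1 only a little above their start. The folds were 57.4 against 2.56 for inv1 and 35.6 against 2.87 for tms1. Untreated late signals of inv1 ran from 0.125 to 0.189, a range that holds both late values of stressed culture 1. Those of tms1 ran from 0.384 to 0.573, below stressed culture 1. For mel1 the folds were 34.2 in culture 2 and 3.33 in culture 1, and on the log2 scale untreated cultures also stood higher, culture 2 by 2.18 and culture 1 by 2.59.

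Of the detoxification genes, gst2 had 17.5 and 19.9 in culture 2, against 2.92 at 0 min, and 14.7 and 13.1 in culture 1, against 3.72. It stood at a like level in all 4 late arrays, well apart from both 0 min arrays. In untreated cultures gst2 reached 10.2 and 18.2 in culture 2, against 6.47, and 17.2 and 34.4 in culture 1, against 9.81, so its level at the end of untreated growth was as high as in stressed cells. The membrane exporter gene caf5, a known target of Pap1, had 9.21 and 9.13 in culture 2, against 0.676, and 1.52 and 1.91 in culture 1, against 0.671.

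A further member, lsd90, which belongs to the core stress set, had the largest late change in culture 2 among the 10 with a symbol. It had 25.8 and 23.2 in culture 2, against 0.378 at 0 min, and 0.800 and 0.591 in culture 1, against 0.189. Untreated cultures lay between 0.266 and 0.499 at the late times, so the late level in culture 1 was a little above theirs and that in culture 2 far above. Protein repair was represented by pcm2, a protein isoaspartate methyltransferase, at 28.9-fold in culture 2 and 2.46-fold in culture 1. In untreated cultures pcm2 stood higher too, 2.3-fold in culture 2 and 2.7-fold in culture 1. Nitrogen use was represented by gdh2, at 3.90-fold in culture 2 and 2.88-fold in culture 1.

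The probe set named nc-pho1 by gene ID, and pho1 (a phosphate-scavenging acid phosphatase) in the older platform annotation, went its own way. The 2 genes overlap, and which transcript the probe set reads was not settled here. It had 10.1 and 11.3 in culture 2, against 4.85 at 0 min, and 22.2 and 15.6 in culture 1, against 2.41. Here culture 1 was the higher one. At 180 min its change was 1.06 in culture 2 and 3.21 in culture 1, which had reached 2.85 by 90 min. Untreated cultures lay below their start, by 0.75 in culture 2 and 0.58 in culture 1.

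The 6 probe sets lower in both cultures had a median change of -1.95 in culture 2 and -1.65 in culture 1. Of the 4 with a symbol, 3 take up iron: fip1 is the iron permease and fio1 the ferroxidase that works with it, and str3 imports iron bound to siderophores. The signal of fio1 was 0.720 and 0.652 in culture 2, against 2.81 at 0 min, and 0.463 and 1.04 in culture 1, against 2.18. That of fip1 was 1.04 and 0.790 in culture 2, against 3.83, and 0.712 and 1.55 in culture 1, against 3.29. The late arrays of both genes lay below both 0 min arrays, at 4.11-fold and 3.15-fold lower for fio1, and 4.23-fold and 3.14-fold lower for fip1, in culture 2 and culture 1. For str3 it was 3.65-fold in culture 2 and 3.79-fold in culture 1.

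Over both cultures these genes did not pass the test (adjusted p = 0.246 for fio1, 0.210 for fip1 and 0.633 for str3 in limma). In untreated cultures the late change of fio1 was -1.71 in culture 2 and -1.41 in culture 1, that of fip1 -0.99 and -1.77, and that of str3 -1.66 and -0.07. Of the 3 only fio1 passed there (-1.56, adjusted p = 0.0485), and its late change in stressed less that in untreated cultures was -0.29 (SE 0.71, adjusted p = 0.911). The 0 min arrays differed between the series, at 2.81 and 2.18 for fio1 in stressed cultures 2 and 1 and 0.647 and 0.358 in untreated ones. The fourth symbol was mfm2, a gene of the M-factor mating pheromone, with 0.201 and 0.214 in culture 2, against 1.76, and 1.24 and 0.971 in culture 1, against 2.55. Its untreated change was 0.61 in culture 2 and -1.89 in culture 1.

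**Figure D3:**
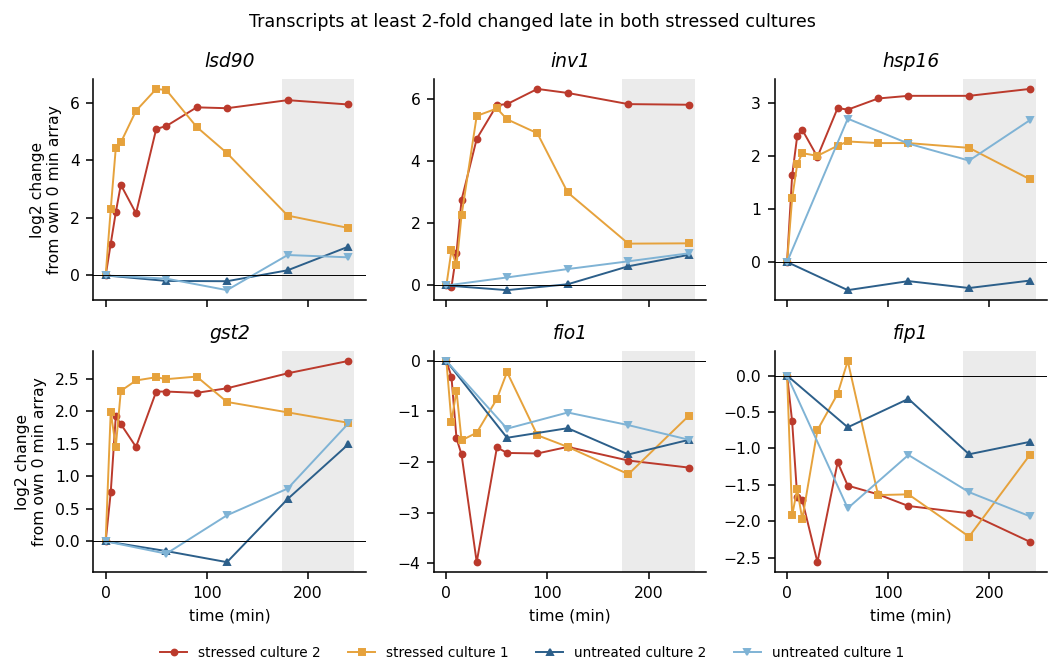
Log2 change from the own 0 min array (y axis) over time in min (x axis) for 4 transcripts higher and 2 lower late in both stressed cultures, with 1 array per point and late times shaded. In stressed culture 2 lsd90 and inv1 stayed near their plateau, at 6.02 and 5.84 late, while in stressed culture 1 they had come down to 1.87 and 1.36.

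How sharp the class of 31 and 6 is depends on low signals. Of its members, 11 of 31 (35.5%) and 3 of 6 (50.0%) lay in the dimmest 25% of probe sets. With 0.25 added to every signal before the logarithm, 13 of the 31 and 1 of the 6 stayed in the class. Among named genes gst2, hsp16, gdh2 and nc-pho1 stayed, while inv1, mel1 and pcm2 then counted as higher in culture 2 alone and lsd90, tms1, caf5, the 3 iron genes and mfm2 as mixed. Among genes with a symbol, the values nearest to the threshold, by the smallest of the 4 late changes, were 1.06 for nc-pho1, 1.13 for tms1 and 1.17 for gdh2 just inside. Just outside lay kpa1 at 0.88, meu25 at 0.84 and rad55 at 0.82. Among lower genes with a symbol, mfm2 at 1.04, fio1 at 1.08 and fip1 at 1.09 were just inside, and str1, another siderophore importer, at 0.87 just outside.

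Few transcripts changed in culture 1 alone. Of the 8 higher there 5 lay in the dimmest 25% of probe sets, and of the 4 lower ones 1. The brighter named ones were ght5, a hexose transporter, and kpa1. The signal of ght5 was 1.26 and 1.43 in culture 2, against 1.53 at 0 min, and 1.84 and 2.66 in culture 1, against 0.757. Only culture 1 moved, and its late level remained within the untreated range of 1.31 to 5.07 at the late times. The value of kpa1 missed 2-fold narrowly in culture 2, with changes of 0.88 and 0.90. The genes mug15 and mug135, named for their rise in meiosis, stood 3.61-fold and 2.11-fold higher in culture 1. Of mug15, whose signal reached at most 0.634 in stressed cultures late, untreated cultures also showed more, by 1.13 in culture 2 and 1.18 in culture 1.

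Lower in culture 1 alone were frp1, the ferric reductase that hands iron to Fio1 and Fip1, and lsm8, together with 2 unnamed probe sets. The signal of frp1 was 1.85 and 1.55 in culture 2, against 2.59, and 0.869 and 1.22 in culture 1, against 3.61. That of lsm8 was 0.0716 and 0.0465 in culture 1, against 0.176, which is among the lowest on the array. The single named transcript with opposite directions was pfl8, of the flocculin family of cell surface proteins, with 0.157 and 0.214 in culture 2, against 0.717, and 1.25 and 1.48 in culture 1, against 0.557. The remaining 3 with opposite directions are unnamed.

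The 485 probe sets higher in culture 2 alone, 224 of them with 1 symbol, had a median change of 1.5 in culture 2 and -0.06 in culture 1. The leading ones with a symbol, by the smaller of the 2 late changes in culture 2, were mug108, mug147, ish1, tcb2, pyp2, mug143, ssa1 and ctt1. Of these, ctt1, the catalase that breaks down hydrogen peroxide, had 17.3 and 17.0 in culture 2, against 1.40 at 0 min, and 2.15 and 2.07 in culture 1, against 1.81. For pyp2 it was 3.93 and 3.99 in culture 2, against 0.244, and 0.264 and 0.254 in culture 1, against 0.299. For both genes the late arrays of culture 2 stood apart from all the others, while those of culture 1 lay close to their own start. Untreated late signals ran from 0.464 to 1.49 for ctt1, below stressed culture 1, and from 0.210 to 0.396 for pyp2, around it.

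The Hsp70 chaperone gene ssa1 had 21.7 and 21.2 in culture 2, against 1.72, and 2.80 and 2.29 in culture 1, against 1.66. The nuclear envelope gene ish1, induced in stress and stationary phase, had 13.2 and 11.8 in culture 2, against 0.603, and 0.941 and 0.576 in culture 1, against 0.908. Members named for meiosis were high as well: mug108 had 7.76 and 7.75 in culture 2, against 0.150, and 0.114 and 0.0672 in culture 1, against 0.0767. Unlike ctt1 and pyp2, mug108, mug147 and mug143 also stood higher in both untreated cultures late, by 1.59 to 3.46. The change of culture 2 less that of culture 1 was 3.39 for ctt1, 4.22 for pyp2, 3.03 for ssa1, 4.68 for ish1 and 5.5 for mug108, each with an adjusted p of 0.546 or 0.548 in limma.

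The 566 probe sets lower in culture 2 alone, 297 of them with 1 symbol, had a median of -1.39 in culture 2 and 0.03 in culture 1. The leading ones with a symbol were eng1, adg1, but1, slp1, rmi1, dbp3, nnf1 and atl1. The glucanase gene eng1, which cuts the septum when daughter cells part, had 0.445 and 0.454 in culture 2, against 4.83 at 0 min, and 3.08 and 4.71 in culture 1, against 5.80. The gene adg1, which is expressed with it at cell separation, had 0.752 and 0.810 in culture 2, against 7.04, and 3.81 and 5.75 in culture 1, against 5.85. The late mean of culture 2 was 10.7-fold below its start for eng1 and 9.02-fold for adg1, and the arrays of culture 1 came closer to their start at 240 than at 180 min. In untreated cultures the late change of eng1 was -1.20 in culture 2 and -0.86 in culture 1, and that of adg1 -0.55 and -0.83.

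Other leading genes act in division and in ribosome assembly. The signal of slp1, which switches on the anaphase-promoting complex, was 0.232 and 0.240 in culture 2, against 1.45, and 1.36 and 2.24 in culture 1, against 1.74. The kinetochore gene nnf1 had 0.101 and 0.103 in culture 2, against 0.472, and 0.616 and 0.486 in culture 1, against 0.710. For dbp3, an RNA helicase of ribosome assembly, the values were 1.12 and 1.16 in culture 2, against 6.21, and 5.35 and 6.49 in culture 1, against 6.93. In each of these genes the late arrays of culture 2 lay below all others in the stressed late set and culture 1 stayed within 2-fold of its start. Untreated cultures had slp1 lower too, by 1.57 in culture 2 and 1.06 in culture 1, and nnf1 slightly higher.

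**Figure D4:**
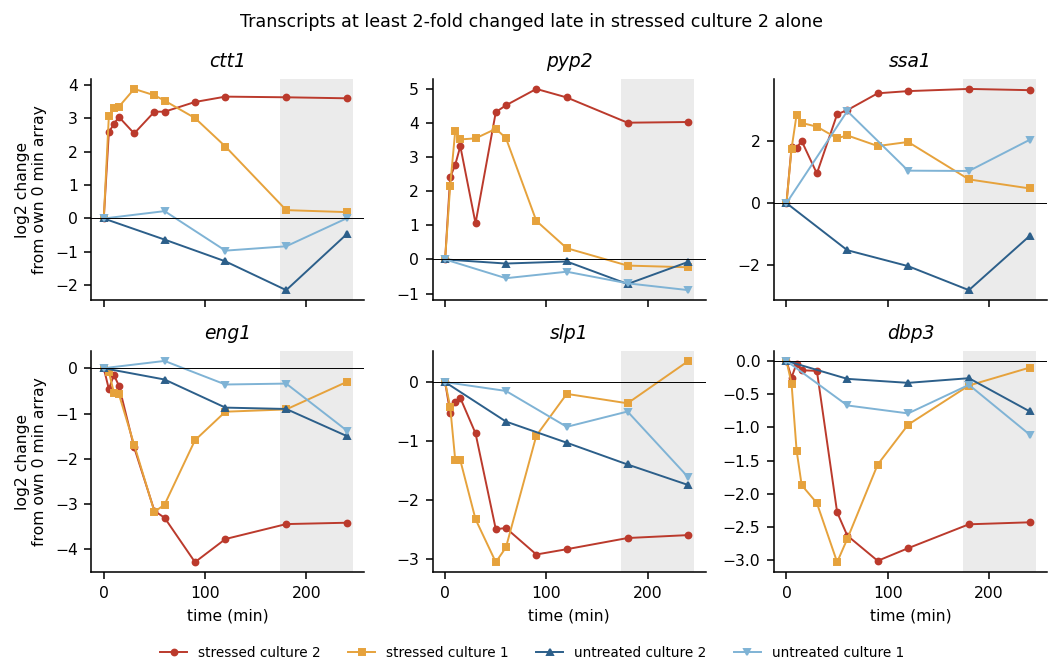
Log2 change from the own 0 min array (y axis) over time in min (x axis) for 3 transcripts higher (top row) and 3 lower (bottom row) late in stressed culture 2 alone, with 1 array per point and late times shaded. At 60 min ctt1 had changed by 3.19 in culture 2 and by 3.52 in culture 1, and pyp2 by 4.52 and 3.56. Late ctt1 was at 3.61 in culture 2, against 0.22 in culture 1.

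Most of what was changed late in culture 2 alone had been changed in culture 1 earlier. Of the 485 probe sets higher in culture 2 alone, 249 (51.3%) had been at least 2-fold higher in culture 1 at both 50 and 60 min, against 7.68% of all probe sets. Of the 566 lower ones, 301 (53.2%) had been lower there, against 7.42%. Seen within a culture, 396 probe sets were higher at both 50 and 60 min in culture 2, and 343 (86.6%) of them still were at 180 and 240 min. In culture 1 it was 30 of 382 (7.85%). For lower probe sets 339 of 485 (69.9%) persisted in culture 2 and 3 of 369 (0.813%) in culture 1. These counts use the same 0 min array for both times of a culture, so an odd 0 min value would raise the persistence in either.

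The return in culture 1 took place between 60 and 180 min, gene by gene at its own pace. Over the arrays at 60, 90, 120 and 180 min the change of pyp2 was 4.52, 5.00, 4.75 and 4.01 in culture 2, against 3.56, 1.13, 0.33 and -0.18 in culture 1. For slp1 it stayed between -2.48 and -2.93 in culture 2 and was -2.81, -0.91, -0.20 and -0.36 in culture 1. For ctt1, which took longer, it stayed between 3.19 and 3.64 in culture 2 and was 3.52, 3.00, 2.15 and 0.25 in culture 1. No 0 min array enters the comparison of 180 and 240 with 50 and 60 min, where limma called 1 probe set of 4972 (0.0201%). It was rid1, which rose by 1.54 (SE 0.21, adjusted p = 0.00215). The signal of rid1 was 1.09 and 1.10 in culture 2 late, against 0.392 and 0.312 at 50 and 60 min, and 1.21 and 1.44 in culture 1, against 0.455 and 0.523. All 4 late arrays were more than 2-fold above all 4 earlier ones, close to the 0 min signals of 1.35 and 1.58 in cultures 2 and 1. Without culture 1 that comparison called 45 probe sets and without culture 2 it called 854, again with 1 array per stressed time, and 3 with the culture as a fixed block.

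Some late changes in culture 2 had not been there at 50 and 60 min: 188 probe sets became higher and 180 lower that had been under 2-fold at both. In culture 1 it was 8 and 7. Of those 7 lower ones, 4 were among the 20 members of the iron list: fio1, fip1, str1 and str3. In culture 1 the change of fip1 was -1.92 at 5 min, 0.20 at 60 min and -2.21 at 180 min. That of fio1 was -1.20, -0.22 and -2.24. The 188 included fbp1, the fructose-1,6-bisphosphatase of gluconeogenesis, rst2, its activator, and 8 of 58 members of the ubiquitin and autophagy list (13.8%, against 3.78% of all probe sets), among them ubi4, a polyubiquitin gene, and atg17. They also included trr1, thioredoxin reductase, and pap1 itself. The signal of trr1 was 26.4 and 28.0 in culture 2, against 12 at 0 min, and 11.7 and 13.5 in culture 1, against 10.4, and that of pap1 was 6.05 and 5.85, against 2.64, and 2.24 and 2.45, against 2.28. Among genes with a symbol the largest late move in culture 2 from its mean at 50 and 60 min was in ppk31, a kinase gene of very low signal (0.126 and 0.138 in culture 2 late, against 0.0274 at 0 min), whose change in culture 2 was -0.29 at 60 min and 2.33 at 240 min. In culture 1 ppk31 stood at 2.27 at 60 min and 0.46 at 240 min. Among the 180 lower were met14, of sulfate assimilation, at -0.53 at 60 min and -1.70 at 240 min in culture 2, and rrn11, of RNA polymerase I initiation, at -0.31 and -1.34. Both had fallen in culture 2 by 90 and 120 min, met14 to -1.27 and -1.53 and rrn11 to -1.15 and -1.19. In culture 1 met14 had been lower earlier, at -1.08 and -1.32 at 50 and 60 min, and rrn11 less so, at -0.72 and -0.43. These genes were chosen after their values were seen.

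The classes were also counted over gene lists. The lists were drawn up with earlier results of these data known, and all 4972 probe sets together had a median of -0.11 in culture 2 and, in culture 1, of -0.02. Beside the counts of members in culture 2 alone that follow stand 9.75% of all probe sets higher and 11.4% lower there. Beside the counts of members in both cultures stand 0.623% of all probe sets higher and 0.121% lower. The core stress genes of the Sty1 and Atf1 pathway (42 probe sets) had a median late change of 1.81 in culture 2 and -0.16 in culture 1. Of the 42, 5 were higher in both cultures (gst2, hsp16, inv1, lsd90, tms1), 17 (40.5%) in culture 2 alone, 0 in culture 1 alone, and none of the 42 was lower in either class. Over both cultures 1 of the 42, hsp16, passed the test, against 7 (0.141%) of all 4972 probe sets. The regulators atf1 and pcr1, partners in one transcription factor, were among the 17, at 1.29 and 2.35 in culture 2 and -0.46 and -0.87 in culture 1. So were the sulfiredoxin gene srx1 (3.42 and -0.29), which restores oxidised peroxiredoxin, the Sty1-bound kinase gene srk1 (3.58 and -0.46) and tps1 for trehalose synthesis (1.98 and -0.70). The kinase gene sty1 and its upstream kinase gene wis1 stayed near 0, at 0.14 and -0.10 in culture 2 and -0.27 and 0.11 in culture 1. The metallothionein gene zym1 and eno102 missed the class of both cultures only at 240 min in culture 1: zym1 had 23.1 and 25.2 in culture 2, against 0.952, and 6.94 and 3.00 in culture 1, against 1.94.

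Antioxidant enzymes and Pap1 targets (28 probe sets) had a median of 0.60 in culture 2 and 0.24 in culture 1, with 2 higher in both cultures (caf5, gst2) and 8 (28.6%) in culture 2 alone, namely ctt1, gpx1, gst3, pap1, pmd1, srx1, trr1 and zwf1. The glutathione peroxidase gene gpx1 had 25.8 and 25.6 in culture 2, against 7.22, and 13.4 and 10.0 in culture 1, against 11.7. The peroxiredoxin gene tpx1, which relays peroxide to Pap1, changed by 0.43 in culture 2 and 0.26 in culture 1, and superoxide dismutase sod1 by 0.25 and 0.13. The trehalose, glycerol and hexitol list (12) had 1.20 in culture 2 and -0.13 in culture 1, with tms1 in both and 6 in culture 2 alone. One of those was gut2, a mitochondrial glycerol-3-phosphate dehydrogenase, at 3.55 in culture 2 and -0.54 in culture 1.

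Heat shock proteins and chaperones (20) had a median of 0.23 in culture 2 and -0.15 in culture 1, with hsp16 in both and 4 (20.0%), hsf1, the heat shock factor gene, hsp9, psi1 and ssa1, in culture 2 alone. The 8 subunits of the chaperonin CCT were in no changed class. Of 58 genes of ubiquitin conjugation and autophagy, 20 (34.5%) were higher and 1 lower in culture 2 alone, with a median of 0.60 in culture 2 and -0.03 in culture 1. The autophagy genes atg1, atg13, atg6, atg8 and atg9 were among the 20, with atg6 at 2.16 in culture 2 and -0.13 in culture 1. In untreated cultures atg6 stood higher too, by 1.11 in culture 2 and 1.54 in culture 1. Of 24 proteasome subunits 1 (4.17%) was higher, rpt5.

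On the lower side stood the making of ribosomes. Of 53 ribosome biogenesis genes 42 (79.2%) were lower in culture 2 alone, with a median of -1.32 in culture 2 and 0.05 in culture 1, and none was lower in culture 1. The signal of sda1 was 0.451 and 0.480 in culture 2, against 1.93, and 1.59 and 2.18 in culture 1, against 1.83. That of rrs1 was 1.53 and 1.87 in culture 2, against 6.10, and 5.53 and 6.13 in culture 1, against 5.92. Both genes act in the assembly of the large ribosomal subunit, and in both culture 1 lay at its start. RNA polymerase I and III subunits (38) had -1.05 in culture 2 and 0.05 in culture 1, with 20 (52.6%) lower in culture 2 alone, among them nuc1, the largest subunit of polymerase I (-1.79 and -0.18), and rpc11 of polymerase III (-2.05 and -0.18). The ribosomal proteins themselves lay closer to 0: 5 of 121 cytosolic (4.13%) and 3 of 49 mitochondrial ones (6.12%) were lower in culture 2 alone, with medians of -0.24 and -0.50 there, and -0.01 and -0.04 in culture 1. In untreated cultures the ribosome biogenesis median was -0.12 in culture 2 and -0.03 in culture 1.

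Division and cell separation genes (58) had a median of -0.41 in culture 2 and -0.14 in culture 1, with 15 (25.9%) lower and 2 higher (cut2, cut9) in culture 2 alone. The septum genes chs2 and cdc15 and the Aurora kinase gene ark1 were among the 15 with eng1, adg1 and slp1. The G1/S genes of the MBF transcription factor (26) were split, 4 higher (cdt2, ctp1, rad21, res2) and 4 lower (cdt1, cig2, csk1, mik1) in culture 2 alone, 15.4% each way. Of the DNA repair and checkpoint genes (86), 8 (9.30%) were higher and 4 (4.65%) lower there, shares near or under those of all probe sets.

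Sugar and nutrient genes moved both ways. Hexose transport, gluconeogenesis and glucose signalling (36) had 0.51 in culture 2 and -0.14 in culture 1, with inv1 in both cultures, ght5 in culture 1 alone and 10 (27.8%) in culture 2 alone. The catalytic and regulatory subunit genes of protein kinase A, pka1 and cgs1, were both among the 10, at 2.37 and 3.12 in culture 2 and -0.04 and -0.59 in culture 1. The gluconeogenic fbp1 had 0.825 and 0.771 in culture 2, against 0.220, and 0.190 and 0.275 in culture 1, against 0.239. Untreated cultures held far more of it, 2.83 and 5.98 in culture 2, against 0.311, and 2.58 and 3.30 in culture 1, against 0.252. Amino acid and sulfur assimilation (57) had 11 (19.3%) lower in culture 2 alone, among them gln1, glutamine synthetase, at -1.57 in culture 2 and -0.10 in culture 1, and purine and pyrimidine synthesis (20) had 4 (20.0%) lower. In the iron list (20), besides the genes above, the siderophore synthesis genes sib1 and sib2, the reductase gene frp2 and hmt1 were higher (20.0%) and pcl1 was lower in culture 2 alone.

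In the lists not yet named, members that changed in culture 2 alone numbered 6 higher of 34 starvation genes (17.6%), 1 higher and 6 lower (17.6%) of 34 cell wall genes and 3 lower of 23 ergosterol genes (13.0%). Of 13 zinc and copper genes 1 was higher and 3 were lower (23.1%). The counts were 1 lower of 49 respiratory chain genes (2.04%) and 1 lower of 12 in the histone list (8.33%), cnp3, a centromere protein rather than a histone. No member of the translation factor (21) and glycolysis (15) lists was in a changed class.

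**Figure D5:**
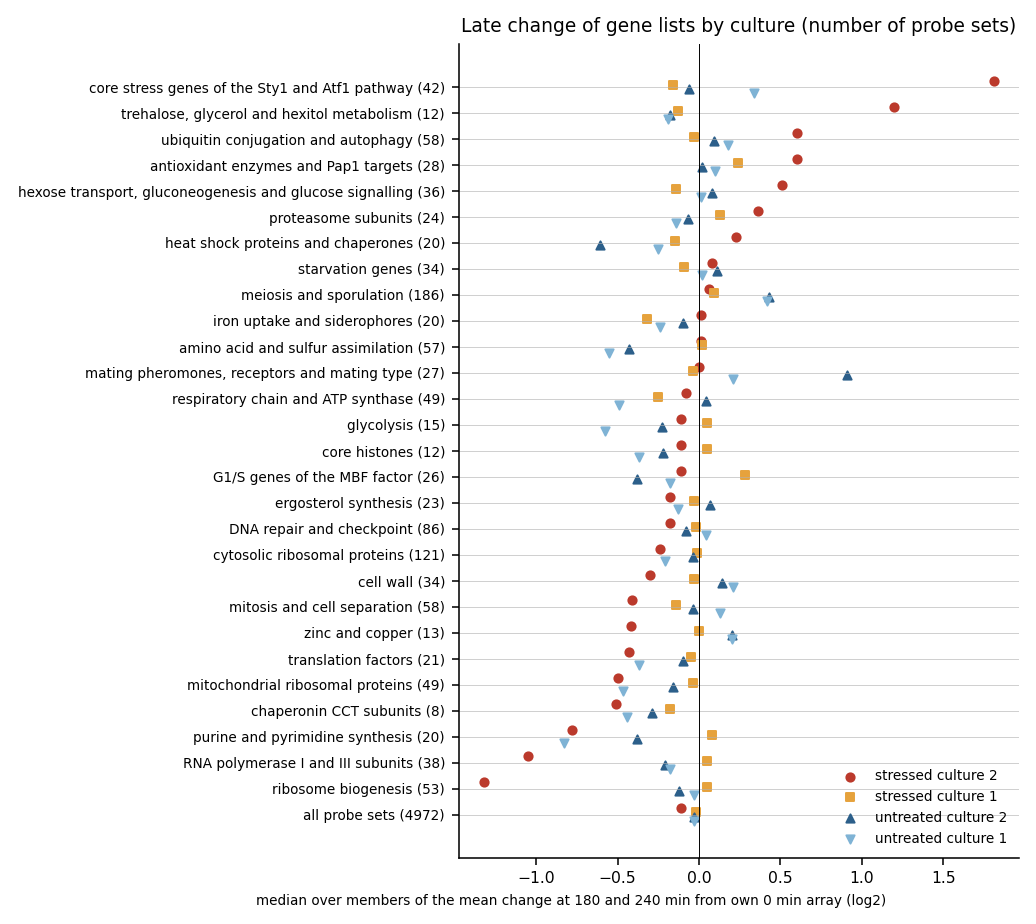
Median over the members of each gene list of the mean log2 change at 180 and 240 min from the own 0 min array (x axis), for stressed culture 2 (circles), stressed culture 1 (squares), untreated culture 2 (upward triangles) and untreated culture 1 (downward triangles), with the number of probe sets in brackets. The core stress list lies at 1.81 and the ribosome biogenesis list at -1.32 in stressed culture 2, and at -0.16 and 0.05 in stressed culture 1.

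Untreated growth over the same span gave more limma calls over its 2 cultures than the stressed series did. Counted within a culture, the untreated changes were fewer than those of stressed culture 2 and more than those of stressed culture 1. At least 2-fold from 0 min at 180 and 240 min were 1271 and 1240 probe sets in stressed culture 2 and 122 and 116 in stressed culture 1. In untreated cultures it was 615 and 769 in culture 2 and 716 and 1237 in culture 1. In limma 582 of 4972 probe sets (11.7%) changed between 0 min and 180 and 240 min, 349 higher and 233 lower, with 1083 when the culture was a fixed block. The late change in stressed less that in untreated cultures passed for 161 (3.24%), 54 higher and 107 lower, and for 437 with the culture as a fixed block. Without untreated culture 1 it passed for 36 and without untreated culture 2 for 48, and without stressed culture 2 for 56 and without stressed culture 1 for 379. The untreated comparison called 87 and 132 without culture 1 and without culture 2. Among those with a symbol, 4 genes of the meiosis list stood at the head of the 107. The signal of rec10, which builds the axis of meiotic chromosomes, was 0.102 and 0.143 in stressed culture 2, against 0.116 at 0 min, and 0.224 and 0.246 in stressed culture 1, against 0.176. In untreated cultures rec10 had 3.82 and 3.84 in culture 2, against 0.191, and 6.01 and 7.70 in culture 1, against 0.262. The stressed cultures stayed at their start while the untreated ones went up by over 4 on the log2 scale, and the difference was -4.28 (SE 0.80, adjusted p = 0.00493). For meu27 it was -4.99 (SE 0.87, adjusted p = 0.00295), for mug95 -4.74 (SE 0.86, adjusted p = 0.00361) and for mde6 -3.81 (SE 0.48, adjusted p = 0.000261).

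JB50 cells can mate and sporulate, so the lists of mating and meiosis genes were followed as signs of cells leaving growth. The meiosis and sporulation list (186) had a median late change of 0.06 in stressed culture 2 and 0.09 in stressed culture 1, and of 0.43 and 0.42 in untreated cultures 2 and 1. Its summed signal was 152 and 150.0 in stressed culture 2, against 116 at 0 min, and 138 and 137 in stressed culture 1, against 136. In untreated culture 2 it was 191 and 196, against 127, and in untreated culture 1 233 and 282, against 159. In limma 32 of the 186 (17.2%) rose in untreated cultures, against 7.02% of all probe sets, and 13 (6.99%) had a lower late change in stressed than in untreated ones, against 2.15% of all. In stressed culture 2 alone 32 (17.2%) were higher, against 9.75% of all, and 17 (9.14%) lower, against 11.4% of all.

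The mating list (27 probe sets) had medians of 0.00 in stressed culture 2 and -0.04 in stressed culture 1, and of 0.91 and 0.21 in untreated cultures 2 and 1. The summed signal of the mating list was 21.6 and 21.5 in stressed culture 2, against 25.7, and 25.7 and 27.2 in stressed culture 1, against 29.2. In untreated cultures the mating list summed to 61.6 and 58.5 in culture 2, against 32.6, and to 57.8 and 50.9 in culture 1, against 47.0. The mating regulator ste11 had 1.62 and 1.43 in stressed culture 2, against 1.5, and 1.26 and 1.48 in stressed culture 1, against 1.58. In untreated cultures it had 8.01 and 8.11 in culture 2, against 1.75, and 6.11 and 3.68 in culture 1, against 2.20, where it rose by 1.66 (adjusted p = 0.0172). Whether fewer cells or less RNA per cell lie behind such levels cannot be told apart in bulk RNA. The part of mating and meiosis in the stressed results was not tested.

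Among the 54 with a higher late change in stressed cultures, the leading 4 with a symbol stayed within 1 of their start in stressed and fell in untreated cultures. The malic enzyme gene mae2 had 15.4 and 15.7 in stressed culture 2, against 12.1 at 0 min, and 16.2 and 17.9 in stressed culture 1, against 12.9. In untreated cultures mae2 had 2.57 and 1.71 in culture 2, against 12.9, and 1.99 and 1.05 in culture 1, against 12.2. The difference was 3.23 (SE 0.40, adjusted p = 0.000261). For cbp6 it was 2.72 (SE 0.49, adjusted p = 0.00361), for pcm1 2.43 (SE 0.44, adjusted p = 0.00347) and for the nuclear pore gene nup85 2.40 (SE 0.37, adjusted p = 0.000874). In these 4 genes both stressed cultures were alike late, within 1 on the log2 scale of each other and of their start.

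The probe sets changed in stressed culture 2 alone were also looked up in this untreated comparison, which uses other arrays. Of the 485 higher ones, 50 (10.3%) rose in untreated cultures in limma, against 7.02% of all probe sets, and 4 fell. Of the 566 lower ones, 18 (3.18%) fell there, against 4.69% of all, and 7 rose. By the 2-fold rule of the classes, 251 (5.05%) of all 4972 probe sets were higher and 92 (1.85%) lower in both untreated cultures. By that rule 62 of the 485 were higher there and 5 lower. Of the 566, 21 were lower and 10 higher, so the share of lower ones was above that of all probe sets, unlike in limma. The median change in untreated cultures was 0.38 for the 485 and -0.22 for the 566.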

How the data were processed

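Total RNA was labelled with biotin by in vitro transcription and hybridised to single-colour Affymetrix arrays, per the labels' protocols. The values are the signal intensity of each probe set as the authors deposited it, on a linear scale from 0.0029 to 64.6. Background correction, probe summary and array scaling are not given in the sources used here. The calibration and the lowest measurable intensity are therefore unknown, and folds that start from a dim signal are uncertain. With 2 arrays a group, the number of arrays limits the precision. Groups, times and cultures were read from the sample titles.

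Intensities were turned into log2 values with no pseudocount. All 32 arrays entered 1 linear model with a mean for each group (lmFit and eBayes of limma 3.58.1, R 4.3.3), and p-values were adjusted by Benjamini-Hochberg over 4972 probe sets within each of 9 comparisons, at a threshold of 0.05. SE is the standard error of a log2 change. Repeated arrays of 1 culture entered as separate groups, so a p-value measures only the spread between these cultures. Each number is 1 culture followed through time, which pairs arrays within a series: the difference of culture 2 from culture 1 correlated over pairs of times with a median r of 0.707 in untreated cultures (10 of 10 pairs above 0.1) and of 0.259 in stressed ones (34 of 55), across probe sets, which are not independent replicates. The culture as a block is an alternative.

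The platform annotation gave 1 symbol for 2903 probe sets, several for 16 and none for 2053, which does not mean that those lack a gene. By gene ID 2900 matched RefSeq (assembly ASM294v3), which updated 110 symbols.

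Classes, members and 28 gene lists were chosen with earlier results of these data known. Named genes have 1 symbol and include the largest tested changes. In each class up to 8 were taken whose smallest absolute late change was largest. Up to 6 each way were taken by p between cultures and up to 4 each way in other comparisons. Each list gave up to 4 by absolute late change averaged over the 4 late arrays. Members of the stress, antioxidant, mating or meiosis lists could also be named. Others are named from list membership, their place beside the threshold or their time of change. The fit was tested on simulated data. Alternatives were the scaling, a filter on dim probe sets, named probe sets only, blocks, left-out arrays, other 0 min references, other fold thresholds and a pseudocount.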

Additional observations from a re-analysis of the deposited data

Results flagged for a closer look

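The late change differed between stressed and untreated cultures, by a test of the difference itself, for 161 probe sets. The named genes with the largest differences were meu27 at -4.99, mug95 at -4.74, rec10 at -4.28 and mde6 at -3.81, which rose in untreated cultures and lay near their start in stressed ones, and mae2 at 3.23, cbp6 at 2.72, pcm1 at 2.43 and nup85 at 2.40, which fell in untreated cultures. In each of these 8 genes both late arrays of both stressed cultures lay on the same side of both late arrays of the untreated ones. The genes were picked by the size of that difference in the same arrays, so this separation adds no support.

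In the stressed cultures 4 probe sets stood at least 2-fold from 0 min in opposite directions at both late times, pfl8 among them, at -1.97 in culture 2 and 1.29 in culture 1. That directions are opposite was not tested. In the comparison of the cultures in limma pfl8 had a difference of -3.26 and an adjusted p of 0.546.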

How the results depend on the processing

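The 7 probe sets called at 180 and 240 min against 0 min became 1 among probe sets with 1 symbol, 0 with only the arrays compared, 32 with all 4 arrays at 0 min as reference and 1 with late arrays averaged first. With the culture as a replicate block they became 8 as a fixed and 14 as a random effect. Leaving out replicates gave 0 to 761, among them 4 settings chosen after seeing the data, each without 1 late array. The 2 called at 180 min became 5 with centred arrays, 4 by quantile normalization, 5 without the dimmest 25% of probe sets, 0 with 1 symbol, 4 without the 30 min array of culture 2, 0 with only the arrays compared, 7 with all arrays at 0 min, 4 and 7 with the fixed and the random block, and 1 to 458 without replicates. The 1 called at 240 min became 0 with 1 symbol, 0 with only the arrays compared, 5 with all arrays at 0 min, 2 and 5 with the blocks, and 0 to 393 without replicates. Against 50 and 60 min the 1 call became 0 with only the arrays compared, 3 and 5 with the blocks, and 1 to 854 without replicates. The 582 untreated calls became 343 with 1 symbol, 1083 and 996 with the blocks and 87 to 722 without replicates. The 161 of stressed minus untreated became 88 without the dimmest 25%, 91 with 1 symbol, 437 and 375 with the blocks and 36 to 379 without replicates. The comparisons of 240 with 180 min and of the 2 cultures, stressed or untreated, gave 0 calls under all alternatives run, and fits with fewer samples or features have fewer degrees of freedom or tests.

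Among the classes, 37 probe sets changed the same way in both cultures; they became 23 without the dimmest 25%, 100 at 1.5-fold, 10 at 3-fold, 81 by 180 min alone and 14 with the pseudocount of 0.25. The 4 with opposite directions became 2 without the dimmest 25%, 31 at 1.5-fold, 0 at 3-fold, 7 by the late mean, 7 by 180 min alone, 22 by 240 min alone, 2 against the mean of both 0 min arrays and 1 with the pseudocount. The 12 of culture 1 alone became 6, 56 at 1.5-fold, 2 at 3-fold, 25 by the late mean, 34 by 180 min and 52 by 240 min alone. The 1051 of culture 2 alone became 1750 at 1.5-fold and 403 at 3-fold. No named gene reversed: 179 of its tested values stayed on their side of the threshold and 26 no longer passed, and of values within a culture 153 moved by less and 127 by more than the spread. The cause of these shifts was not tested. The unknown floor of the signal limits folds of dim probe sets.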
